A study of Mus musculus with 130 samples.

Results

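Of 114 mouse strains fed a high-iron diet, 40 were compared here, chosen by the amount of Tfrc messenger RNA in the liver. Tfrc encodes transferrin receptor 1, through which cells take up iron bound to transferrin. The strains were ranked by the deposited TPM (transcripts per 1000000, a level corrected for gene length) of Tfrc, and the 20 highest were set against the 20 lowest, with 73 strains in between. Each strain was represented by 1 male mouse that had 4 weeks of chow and then 6 weeks of a diet with 2% carbonyl iron (20000 ppm), so all mice of the panel had the same diets and the groups differ in strain. The series holds 130 liver libraries: 115 from this panel of 114 inbred strains, and 15 from C57BL/6J mice on 5 diets, with 3 mice per diet. Left out of the ranking were the second mouse of 129X1/SvJ (Tfrc 2.27 TPM) and the library of BXD65/RwwJ (4.62 TPM). RNA came from the large lobe of the liver, and the age of the mice is not given in the sources used here. With 1 mouse per strain, strain and individual mouse cannot be told apart, and the spread given below is that between strains.

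In most cells Tfrc is a gauge of iron shortage. When cytosolic iron is low, the iron regulatory proteins IRP1 (gene Aco1) and IRP2 (Ireb2) bind hairpins called iron-responsive elements in messenger RNAs. Binding in the 3′ untranslated region of Tfrc protects the message from decay, while binding near the 5′ end of the ferritin and ferroportin messages blocks their translation. Tfrc is also transcribed more when hypoxia-inducible factors (HIF) or MYC are active, and it is abundant in dividing cells and in red cell precursors. In the iron-loaded liver the hepatocyte normally holds little Tfrc and takes up iron by other routes, while hepcidin (Hamp), a liver hormone under BMP and SMAD control, limits iron release from other tissues.

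Tfrc lies at chr16:32608920-32632794 on the plus strand of GRCm38. In its 3′ untranslated region, 4 stretches matched a pattern of the iron-responsive hairpin. They are shown because hairpins of this kind are the part of the message by which iron acts on the quantity used for the ranking. They were found as a C, 5 bases, the loop CAGTGN, and 5 bases that pair with the first 5, with G–T pairs allowed. The capitals mark the loop, and the sequences are those of the reference transcript on GRCm38, at chr16:32631219-32631248, chr16:32631598-32631627, chr16:32631663-32631692 and chr16:32631710-32631739, in that order.
Tfrc hairpin 1: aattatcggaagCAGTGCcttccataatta
Tfrc hairpin 2: cattatcgggagCAGTGTcttccataatgc
Tfrc hairpin 3: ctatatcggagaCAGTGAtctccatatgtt
Tfrc hairpin 4: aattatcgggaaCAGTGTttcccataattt
Of 21864 annotated genes, 118 (0.54%) had at least 1 such match in the 3′ untranslated region, and Tfrc was the only gene with 3 or more. A 5′ match stood in 20 genes (0.0915%). For comparison, the 5′ hairpins of ferritin heavy chain (Fth1, chr19:9982732-9982761, plus strand), ferritin light chain (Ftl1, chr7:45459778-45459807, minus strand) and ferroportin (Slc40a1, chr1:45925464-45925493, minus strand) were as follows.
Fth1 hairpin: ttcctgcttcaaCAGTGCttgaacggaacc
Ftl1 hairpin: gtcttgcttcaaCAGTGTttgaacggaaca
Slc40a1 hairpin: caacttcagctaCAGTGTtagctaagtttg
A match describes the letters only, and binding was not measured. The search covered 1 transcript per gene and misses hairpins that depart from the pattern, so the number of matches is not the number of elements. It found none in Slc11a2 or Epas1, which are named below among the messages with such elements.

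Across the ranked strains the Tfrc level ran from 1.38 TPM in BXD13/TyJ to 42.9 TPM in FVB/NJ, a 31.1-fold range with a median of 5.70 TPM. The 20 high strains lay between 13.9 and 42.9 TPM with a median of 20.62 TPM, the 73 strains between had 3.34 to 13.7 TPM with a median of 5.70 TPM, and the 20 low strains 1.38 to 3.28 TPM with a median of 2.63 TPM. The medians of the high and low strains thus differed 7.85-fold. These levels chose the groups and are a description only. The counts behind them were 454 to 1463 per library in the high strains and 60 to 160 in the low strains. The distribution had no break at either border: the last high strain, BXD42/TyJ, had 13.86 TPM and the next strain, BXD36/TyJ, 13.71 TPM, while the first low strain, BXD1/TyJ, had 3.28 TPM and its neighbour, SWR/J, 3.34 TPM.

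**Figure D1:**
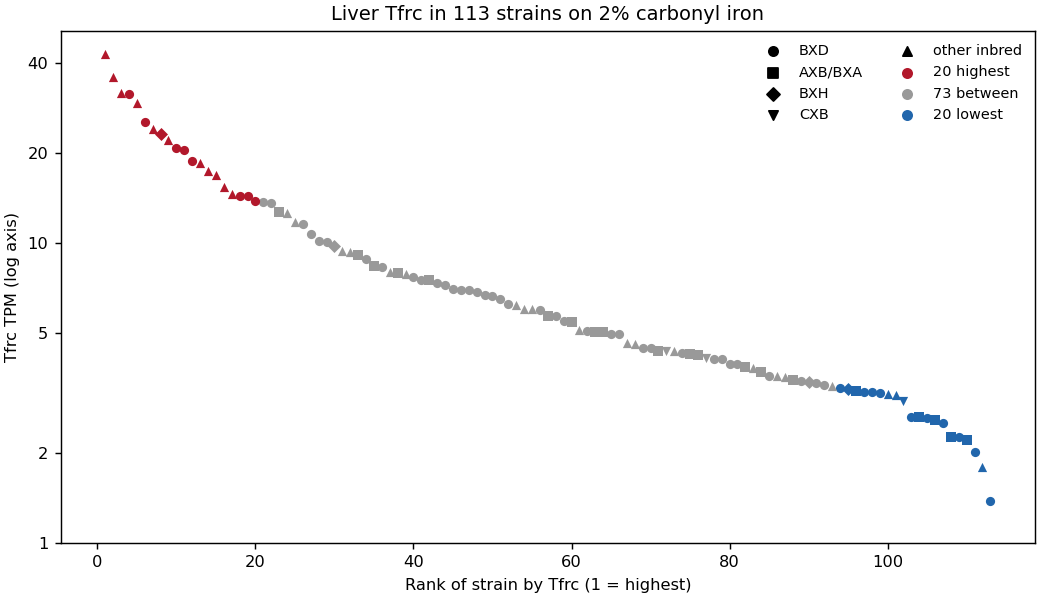
Tfrc level of each ranked strain (deposited TPM, log axis) against its rank, with the 20 high, 73 middle and 20 low strains in separate colours and the strain families by symbol. The level falls continuously from 42.9 TPM in FVB/NJ to 1.38 TPM in BXD13/TyJ.

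The high group was led by FVB/NJ (42.9 TPM), BTBR T<+> tf/J (35.9 TPM), NZB/BlNJ (31.8 TPM), BXD27/TyJ (31.5 TPM) and NOR/LtJ (29.3 TPM). It also held BXD87/RwwJ, AKR/J, BXH2/TyJ, LG/J, BXD32/TyJ, BXD21/TyJ, BXD74/RwwJ, BALB/cJ, BUB/BnJ, PL/J, C58/J, NOD/ShiLtJ, BXD100/RwwJ, BXD55/RwwJ and BXD42/TyJ. The low group consisted of BXD13/TyJ (1.38 TPM), C57BLKS/J (1.79 TPM), BXD31/TyJ, AXB19/PgnJ, BXD39/TyJ, AXB12/PgnJ, BXD15/TyJ, AXB8/PgnJ, BXD70/RwwJ, BXA8/PgnJ, BXD75/RwwJ, CXB2/ByJ, CE/J, CBA/J, BXD45/RwwJ, BXD86/RwwJ, BXD56/RwwJ, AXB13/PgnJ, BXH14/TyJ and BXD1/TyJ. The high strains were 8 BXD lines (recombinants of C57BL/6J and DBA/2J), 1 BXH line and 11 other inbred strains. The low strains were 10 BXD, 5 AXB/BXA (recombinants of A/J and C57BL/6J), 1 BXH and 1 CXB line and 3 other inbred strains. Family and Tfrc group were therefore unevenly mixed, and no AXB/BXA line was in the high group. Ranking the strains by CPM of Tfrc (counts per 1000000 counts of the library, without length correction) kept 18 of the 20 high and 14 of the 20 low strains.

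Library totals did not separate the groups. They ran from 10.4 to 15.4 M counts (M, 1000000) in the high strains (mean 12.2 ± 1.19, SD, n = 20) and from 10.8 to 14.5 M in the low strains (12.5 ± 1.17, n = 20), with a two-sided permutation p of 0.497 from 100000 resamples. The scaling factors of the TMM method ranged from 0.8375 to 1.21 in the high and from 0.897 to 1.044 in the low strains. Of 16 genes that mark hepatocytes, all were measured, and their summed level was 76377 to 179598 CPM in the high and 96631 to 137776 CPM in the low strains. Of 12 markers of the exocrine pancreas, which lies against the liver, 9 were under 1 CPM in all 40 libraries. Their summed level was 3.78, 6.66 and 212 CPM (lowest, median, highest) in the high and 4.76, 7.95 and 24.2 CPM in the low strains. The highest sum was that of BALB/cJ, where the amylase gene Amy2b alone had 207.03 CPM.

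Between the high and the low strains, 7035 of 13162 genes tested apart from Tfrc differed at an adjusted p under 0.05 (edgeR's quasi-likelihood test, Benjamini-Hochberg adjustment), which is 53.4% of them. Of these, 3799 were higher in the high strains (28.9% of all genes tested) and 3236 were lower (24.6%). The difference was beyond 2-fold in 889 of the genes. Because more than every second gene was called, a called gene or a called gene list is by itself no mark of a tie to Tfrc, and the shares of 28.9% and 24.6% are the background for each list below. All fold changes are log2 differences, high minus low, and the median over all genes tested was 0.03. Only 43 genes (0.327%) had ranges that did not overlap between the 20 high and 20 low strains, 13 higher and 30 lower.

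The genes nearest to Tfrc in regulation were those under the IRPs. Of 15 genes of this list (the IRPs, their regulator Fbxl5, genes whose messages carry an iron-responsive element, and proteins tied to decay of the Tfrc message), 7 were higher, 2 lower and 6 did not pass the test, with a median of 0.01. The divalent metal transporter Slc11a2 (DMT1), which like Tfrc has an isoform with a 3′ hairpin, had 12.9 CPM at the lowest, 38.3 at the median and 60.2 at the highest in the high strains, against 10.5, 15.3 and 23.6 CPM in the low strains. It was higher by 1.23 (SE 0.13, adjusted p 8.40e-10), and 18 of the 20 high strains lay above every low strain. Ireb2, which encodes IRP2, was in contrast lower: it had 53.6, 81.4 and 123 CPM in the high strains and 90.6, 114 and 138 CPM in the low strains, a difference of -0.47 (SE 0.07, adjusted p 9.24e-07), with 17 high strains under every low strain. The deposited values measure message, so they say nothing of the amount or activity of the IRP2 protein.

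The messages with 5′ hairpins did not move as one. Fth1 was higher by 0.47 (SE 0.09, adjusted p 5.40e-05), from a median of 845.9 CPM in the low strains (631 to 1103) to 1066 CPM in the high strains (749 to 1925). Slc40a1, the iron exporter ferroportin, was higher by 0.34 (adjusted p 0.00154), and Epas1, which encodes HIF-2α, by 0.35 (adjusted p 0.000225). The groups overlapped for all 3 of these genes, since 9 high strains lay above every low strain in each. Ftl1 (high 4149 CPM, low 4377 CPM at the median, adjusted p 0.119), Alas2 and Aco1 (IRP1, -0.03 with adjusted p 0.694) did not pass the test, nor did Pfn2 and Cdc14a. Fbxl5, the iron sensor that marks IRP2 for degradation, was lower by a small step (-0.18, adjusted p 0.0267). The RNases and RNA-binding proteins of Tfrc decay were not lower: Zc3h12a (Regnase-1) was higher by 0.62 and the roquins Rc3h1 and Rc3h2 by 0.28 and 0.26.

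Among 28 tested genes of iron uptake, transport and storage (of 30 on the list), 14 were higher, 3 lower and 11 did not pass, with a median of 0.17. Transferrin itself (Trf), the ligand of the receptor and one of the most abundant liver messages, stood out as the only gene of this list without overlap. Its level was 20227, 29969.9 and 54058 CPM (lowest, median, highest) in the high strains and 9089, 13908 and 18496 CPM in the low strains. Every high strain was thus above every low strain, and the difference was 1.16 (SE 0.12, adjusted p 3.93e-10).

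The genes of this list that handle heme and hemoglobin did not all move one way. Heme oxygenase 1 (Hmox1), which frees iron from heme, had 21.9, 96.9 and 223 CPM in the high and 20.4, 33.8 and 58.9 CPM in the low strains, a difference of 1.52 (SE 0.19, adjusted p 4.35e-08), and 17 high strains lay above all low strains. The macrophage receptor for hemoglobin bound to haptoglobin, Cd163, was higher by 1.26 (SE 0.20, adjusted p 1.71e-06), with medians of 69.6 and 26.3 CPM. Haptoglobin (Hp, 0.96), hemopexin (Hpx, 0.77), the heme exporter Flvcr1 (0.86), its relative Flvcr2 (0.76) and the lysosomal heme transporter Slc48a1 (0.26) were higher too. Hp and Hpx are also genes of the acute-phase response. The biliverdin reductases Blvra (-0.06, adjusted p 0.452) and Blvrb (0.14, adjusted p 0.213), which act after heme oxygenase, did not pass the test, and the hemopexin receptor Lrp1 was lower (-0.29, adjusted p 0.00733).

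For iron that is not bound to heme, the zinc and iron importer Slc39a14 (ZIP14), a main route for non-transferrin iron into hepatocytes, was higher by 0.54 (adjusted p 4.37e-06), from a median of 325.7 to 444 CPM. The ferritinophagy receptor Ncoa4, which carries ferritin to the lysosome, was higher by 0.52 (SE 0.07, adjusted p 3.96e-07), with 205 to 401 CPM in the high and 146 to 231 CPM in the low strains, and 16 high strains above all low ones. The ferritin receptor Scara5 (1.69, adjusted p 0.00673), the plasma ferroxidase ceruloplasmin (Cp, 0.56), the ferrireductase Steap2 (0.54) and the iron chaperone Pcbp2 (0.17) were higher. The lysosomal channel Mcoln1 (-0.33) and the importer Slc39a8 (-0.26) were lower. For the second transferrin receptor Tfr2, an iron sensor of the hepatocyte, no difference was detected: it had 219, 386.6 and 528 CPM in the high and 304, 375.4 and 418 CPM in the low strains, a difference of 0.06 (SE 0.08, adjusted p 0.538). Hfe, its partner in hepcidin control, differed by -0.05 (adjusted p 0.568).

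Some listed genes of the hepcidin pathway were lower, and the others, Hamp among them, did not pass the test. Of 19 BMP and SMAD genes, 0 were higher and 8 lower, with a median of -0.27. Hamp had 333, 789 and 1118 CPM in the high strains and 544, 897 and 1146 CPM in the low strains, a difference of -0.09 (SE 0.12, adjusted p 0.522), so no difference in hepcidin message was detectable. The strains overlapped almost wholly, with 3 high strains under every low one. The near copy Hamp2 varied widely between strains (26.8 to 2863 CPM in the high, 54.7 to 3131 CPM in the low strains) and did not pass either (-1.19, adjusted p 0.113). Hamp and Hamp2 are close in sequence, and how the authors' counting split reads between them is not known.

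The 8 lower genes of this list were the co-receptors Neo1 (-0.44, SE 0.05, adjusted p 2.30e-08) and Hjv (hemojuvelin), the protease Tmprss6 that removes hemojuvelin (-0.41, SE 0.10, adjusted p 0.000656), and the target genes Id2, Id3, Id4, Smad7 and Atoh8. Tmprss6 ran from 127 to 455 CPM in the high strains (median 313) and from 345.3 to 490 CPM in the low strains (median 415), and 12 high strains were under all low ones. Id4 had medians of 7.73 and 13.8 CPM (-0.89, adjusted p 3.83e-05). The ligand Bmp6, which endothelial cells make in response to iron, did not pass (0.10, adjusted p 0.63). Of 10 enzymes of heme synthesis, 0 were higher and 6 lower, among them Urod (-0.34), ferrochelatase Fech (-0.27), Alad (-0.83) and Uros (-0.59).

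Most of the listed genes that HIF switches on were called higher, though their summed level was not raised in every high strain. Of 20 HIF targets 19 were tested (Epo was not), and 18 were higher and 0 lower, with a median of 1.04. The summed level of the 20 targets was 1301, 3404 and 6376 CPM in the high and 1280, 1507 and 2156 CPM in the low strains. It lay above every low strain in 17 high strains, but not in FVB/NJ (1964 CPM), BTBR T<+> tf/J (1677 CPM) and BALB/cJ (1301 CPM). FVB/NJ and BTBR T<+> tf/J were the strains with the most Tfrc. Ddit4 (REDD1), an inhibitor of the growth kinase mTORC1, had 3.66, 46.7 and 212 CPM in the high and 2.20, 4.74 and 14.5 CPM in the low strains (3.77, SE 0.40, adjusted p 1.41e-09). The histone demethylase Kdm3a had ranges without overlap, 21.97 to 58.7 CPM in the high and 12.5 to 21.1 CPM in the low strains (1.09, SE 0.10, adjusted p 2.50e-11). The mitophagy gene Bnip3 was higher by 1.30, the collagen prolyl hydroxylases P4ha1 and P4ha2 by 1.07 and 1.83, adrenomedullin (Adm) by 1.84, the glucose transporter Slc2a1 by 0.90, lactate dehydrogenase Ldha by 0.69 and Vegfa by 0.57. Pdk1 was the exception among the genes tested (-0.09, adjusted p 0.676). Ankrd37, an ankyrin-repeat gene known as a HIF target, had 0.477, 4.88 and 16.6 CPM in the high and 0, 0.379 and 0.835 CPM in the low strains. It passed the filter on low counts through the high strains and so had to differ, and although it is 1 of the 18, its values are given as a description.

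HIF binds DNA at a core of letters, ACGTG, and the promoters of Tfrc, Ddit4 and Bnip3 are shown because the first was the ranking gene and the other two are HIF targets that were higher with it. Each run spans 250 bases before to 50 bases after the RefSeq start on GRCm38, read along the gene, and capitals mark ACGTG on either strand. They lie at chr16:32608646-32608945 on the plus strand (Tfrc), chr10:59951721-59952020 on the minus strand (Ddit4) and chr7:138909457-138909756 on the minus strand (Bnip3).
Tfrc promoter: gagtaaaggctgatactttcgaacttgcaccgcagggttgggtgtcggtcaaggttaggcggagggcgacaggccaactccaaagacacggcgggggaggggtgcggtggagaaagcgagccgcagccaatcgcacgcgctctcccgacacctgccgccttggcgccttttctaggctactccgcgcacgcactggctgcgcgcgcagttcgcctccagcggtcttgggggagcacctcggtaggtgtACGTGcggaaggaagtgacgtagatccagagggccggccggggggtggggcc
Ddit4 promoter: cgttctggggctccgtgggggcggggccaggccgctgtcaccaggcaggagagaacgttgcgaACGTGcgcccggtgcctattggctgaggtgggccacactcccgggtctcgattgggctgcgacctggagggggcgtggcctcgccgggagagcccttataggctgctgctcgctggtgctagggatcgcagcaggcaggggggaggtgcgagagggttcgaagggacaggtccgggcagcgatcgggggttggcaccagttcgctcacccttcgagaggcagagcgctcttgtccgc
Bnip3 promoter: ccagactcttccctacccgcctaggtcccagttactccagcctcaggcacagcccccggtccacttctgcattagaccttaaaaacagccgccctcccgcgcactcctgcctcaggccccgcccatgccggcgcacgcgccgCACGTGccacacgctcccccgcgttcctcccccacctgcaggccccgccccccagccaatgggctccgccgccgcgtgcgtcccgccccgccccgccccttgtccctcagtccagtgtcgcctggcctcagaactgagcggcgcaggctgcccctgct
In Bnip3 the motif is read on both strands at once, so its 2 matches overlap. At least 1 match stood in 9 of the 14 HIF targets with a promoter in the table (64.3%), in 3615 of all 16774 promoters (21.6%) and in 25.8% of the promoters of genes tested. It stood in 1 of 10 promoters of the IRP list and in 3 of 16 of the cholesterol list. A match is a description of the letters, not evidence of binding.

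The genes with the smallest p-values outside the lists were a varied set. Btg2, a brake on cell division and a p53 target, had 35.7, 113.4 and 232 CPM in the high and 4.45, 10.2 and 25.04 CPM in the low strains, with no overlap (3.38, SE 0.22, adjusted p 1.66e-14). The cell cycle inhibitor Cdkn1a (p21), also a p53 target, was higher by 3.82 (SE 0.33, adjusted p 1.72e-11), with medians of 86.3 and 4.93 CPM. The cold-induced RNA-binding protein Rbm3 (1.47), the glycolytic enzyme Aldoa (0.98) and Btg2 and Kdm3a above had no overlap between the groups. Igfbp1, which binds insulin-like growth factors, was also without overlap, at 233, 689 and 2724 CPM in the high and 17.8, 65.1 and 208 CPM in the low strains (3.48, SE 0.33, adjusted p 1.18e-10). The fatty acid receptor Ffar4 (5.73), the lipid carrier Fabp4 (2.71), Mab21l3 (6.95), the oxidative folding enzyme Ero1l (1.22), Ints6l (1.39) and the calcium channel gene Cacna1b (5.16) were higher as well. Of these, Mab21l3 and Cacna1b had at most 0.352 and 0.345 CPM in the low strains, so their fold changes rest on few counts. They passed the filter on low counts through the high strains and so had to differ, and their values are given as a description.

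**Figure D2:**
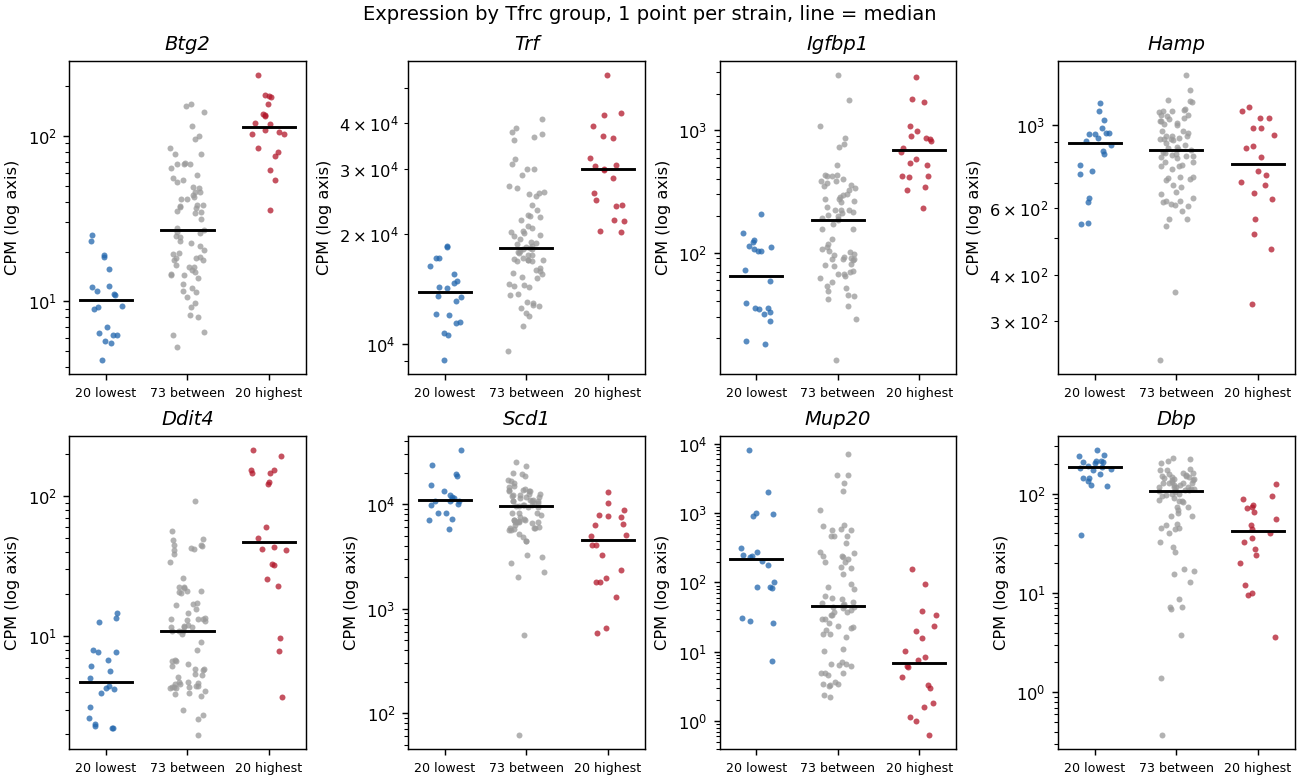
CPM of 8 genes (log axes) in the 20 lowest, 73 middle and 20 highest Tfrc strains, 1 point per strain with a line at the median. The high and low ranges of Btg2, Trf and Igfbp1 do not overlap, while those of Ddit4 and Mup20 do.

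On the lower side, genes with the smallest p-values included the fatty acid hydroxylase Cyp4v3 (-1.20), which had 72.9 to 164 CPM in the high and 168 to 356 CPM in the low strains, with no overlap (SE 0.09, adjusted p 9.28e-13). Signalling genes followed, namely the kinase genes Prkcz (-1.35) and Prkaca (-0.69), the G protein gene Gna12 (-0.90) and the orphan receptor gene Gpr146 (-1.18). The peroxisomal protease Lonp2 (-1.07), the aminoacylase Acy3 (-1.42), the semaphorin receptor Plxnb2 (-0.71), Ankrd46 (-0.72) and the Golgi gene Cog4 (-0.66) were lower too. All 10 of these genes but Prkcz were without overlap between the groups. So was the fatty acid carrier Fabp1, at 78.4 to 1322 CPM in the high and 1443 to 2610 CPM in the low strains (-1.78, SE 0.23, adjusted p 4.43e-08).

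Lipid synthesis was lower in the high strains. Of 24 genes of cholesterol synthesis and uptake, 0 were higher and 23 lower, with a median of -0.97, and Sqle (-0.61, adjusted p 0.0624) was the one that did not pass. Sc5d, a late enzyme of the pathway, had 21.2, 104.4 and 381 CPM in the high and 164, 520 and 772 CPM in the low strains (-1.97, SE 0.25, adjusted p 3.43e-08), and 16 high strains were under all low ones. The entry enzyme Hmgcs1 had medians of 138 and 325 CPM (-1.40). Of 15 genes of fatty acid synthesis, 0 were higher and 14 lower, with a median of -0.82. Fads2, a desaturase, was lower by 1.74, the elongase Elovl5 by 1.61, fatty acid synthase Fasn by 1.46 and the carbohydrate-response factor Mlxipl (ChREBP) by 0.78.

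Genes of fatty acid oxidation were lower in part. Of 16 genes of PPARα and fatty acid oxidation, 1 was higher and 8 were lower, with a median of -0.56. The mitochondrial gate Cpt1a had 250 to 728 CPM in the high and 635 to 934 CPM in the low strains (-0.75, SE 0.11, adjusted p 9.65e-07), and Cpt2 (-0.65) and the pantetheinase Vnn1 (-2.31) were lower. Pdk4, which blocks glucose oxidation, was the one higher gene, at 5.47, 17.5 and 170 CPM against 2.64, 4.46 and 8.49 CPM (3.18, SE 0.38, adjusted p 1.58e-08). Pdk4 answers to several signals besides PPARα.

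Genes that male livers express more than female ones were lower in the high strains, although every mouse was male. Of 14 tested male-biased genes (of 15), 0 were higher and 11 lower, with a median of -1.92. Nudt7, a peroxisomal hydrolase, had 4.77, 25.5 and 77.9 CPM in the high and 81.4, 204 and 482.5 CPM in the low strains, without overlap (-2.94, SE 0.27, adjusted p 5.33e-11). The pheromone-carrier gene Mup20 had 0.636, 6.86 and 158 CPM against 7.32, 216.9 and 8015 CPM (-5.08, SE 0.82, adjusted p 3.13e-06), with wide overlap. Mup1 (-8.74), Mup7 (-7.78), Mup11 (-6.46), Mup9 (-6.23) and Mup19 (-6.21) had the largest falls of all genes named. The Mup genes are near-identical copies, as are Cyp4a12a (-3.84) and Cyp4a12b (-3.49), and the value of any single one is uncertain. Of 15 female-biased genes 4 were higher and 0 lower, Sult3a1 (3.04) among them. Of 4 sex-linked genes tested, 0 were called.

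Clock genes differed in both directions. Of 16 tested circadian genes 5 were higher and 7 lower. The clock output gene Dbp had 3.59, 42.1 and 124 CPM in the high and 38.4, 183 and 271 CPM in the low strains (-1.88, SE 0.28, adjusted p 8.81e-07), and Nr1d1 (REV-ERBα) was lower by 1.41. The repressors Cry1 and Cry2 were higher by 1.09 and 0.54. The hour of collection is not given in the sources used here, and its part in the results was not tested. With the log2 level of Dbp as a covariate, an alternative added after seeing the data, 1721 genes were called (6.67% of genes tested higher and 6.4% lower), in place of 7035. In that fit 14 HIF targets, 7 neutrophil markers and 9 male-biased genes were called in the same direction, against 2 of cholesterol synthesis, 3 of lipogenesis and 0 of proliferation. The neutrophil markers are only those that the filter on low counts kept. Slc48a1 turned from 0.26 to -0.01 in that fit. Dbp itself differs between the groups, so this fit also removes what Dbp shares with Tfrc. Among the 73 strains between, whose slopes on Tfrc are given below, 2975 of 14076 genes were called with the Dbp covariate, in place of 3180.

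Red cell precursors hold much Tfrc, and their genes were higher in many high strains. Only 10 of 20 erythroid markers were tested, and 9 were higher. Of the others, 9 had too few counts and Ahsp was not matched. A marker that passes the filter through the high strains alone had to differ, so this count supports nothing by itself. The summed level of the 19 matched markers was 16.7, 811 and 2975 CPM in the high and 14.9, 80.7 and 813 CPM in the low strains. Slc4a1, the band 3 anion exchanger of red cells, had 0, 12.5 and 204 CPM against 0, 0.21 and 6.42 CPM (5.48, SE 0.83). Its highest levels were in BTBR T<+> tf/J (204 CPM), FVB/NJ (164 CPM) and NZB/BlNJ (124 CPM). These were also the 3 strains with the most Tfrc, whereas BALB/cJ and C58/J in the high group had no Slc4a1 count. Ermap (2.28), Sptb (2.77) and Epor (1.07) were higher too. The limit set by the filter applies to these single markers and to Slc4a1, so their values are given as a description. The hemoglobin genes are near-identical pairs, and reads may be split between them. In whole liver RNA, a change in the number of cells of a type and in the RNA per cell cannot be told apart.

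Each list was counted again without those 3 strains, and with the erythroid level as a covariate. Without FVB/NJ, BTBR T<+> tf/J and NZB/BlNJ, 26% of genes tested were higher and 22.7% lower, and 18 HIF targets, 23 cholesterol genes, 7 neutrophil markers, 9 erythroid markers, 17 proliferation genes and 13 MYC targets were called in the same direction as with all strains. With the erythroid covariate (25.6% higher, 22.3% lower) the calls were 18 HIF targets, 24 cholesterol genes and 7 neutrophil markers. The counts of erythroid and neutrophil markers are limited to those that the filter kept and support nothing by themselves.

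Neutrophil genes were higher as well. Of 12 markers 7 were tested and all 7 were higher, a count again limited to markers that the filter kept. S100a9, an abundant granule protein, had 0.831, 12.5 and 43.8 CPM in the high and 0.0866, 0.928 and 5.49 CPM in the low strains (3.59, SE 0.47). S100a8 (3.92), Ngp (4.97) and myeloperoxidase Mpo (4.48) were higher too. The limit set by the filter applies to each of these markers as well, so their values are given as a description. The summed neutrophil level was 7.08, 68.2 and 180 CPM against 3.28, 7.19 and 21.8 CPM. Of 18 macrophage and Kupffer cell markers, 10 were higher and 0 lower (summed 475 to 1578 CPM against 374 to 1174 CPM), among them the scavenger receptor Marco (1.80) and the complement receptor Vsig4 (0.71).

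Markers of the other liver cells were called in part. Of 12 endothelial markers 5 were higher and 0 lower (summed 344.9 to 1004 and 310 to 738.1 CPM), of 14 tested stellate and fibrosis genes 5 and 0 (218 to 474 and 180 to 357 CPM), and of 6 tested cholangiocyte markers 2 and 0 (19.9 to 62.6 and 20.1 to 57.1 CPM). Of 5 tested lymphocyte markers 0 were called (3.98 to 14.1 and 6.01 to 15.6 CPM). Of 16 hepatocyte genes 3 were higher and 6 lower, with the transcription factor Cebpa at medians of 301 CPM in the high and 520 CPM in the low strains (-0.87, adjusted p 7.16e-06). The part of these cells in the Tfrc level and in the other differences was not tested.

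Dividing cells also hold much Tfrc. Of 28 proliferation genes 24 were tested, and 21 were higher and 1 lower. Mki67, the classical marker of cycling cells, had 1.02, 13.97 and 168 CPM in the high and 1.15, 4.22 and 9.79 CPM in the low strains (2.75, SE 0.46, adjusted p 5.86e-06), with the highest level in BTBR T<+> tf/J and the lowest of all 40 in NOR/LtJ, also a high strain. Ccna2 (2.23), Ccnb1 (2.38) and Top2a (2.01) were higher. The lower gene was cyclin D1 (Ccnd1), at 7.20, 34.99 and 211 CPM against 109, 216.6 and 315 CPM (-1.84, SE 0.33, adjusted p 1.29e-05). Without Ccnd1, the summed proliferation level was 64.5, 125 and 569 CPM in the high and 52.8, 73.5 and 108 CPM in the low strains. With that level as a covariate, added after seeing the data, 4479 genes were called (34% of those tested). The planned covariate was the sum with Ccnd1, which had medians of 180 CPM in the high and 290 CPM in the low strains. With it, 6992 of 13162 genes were called.

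Many growth and stress genes were higher too. Of 20 MYC targets and ribosome biogenesis genes 14 were higher and 0 lower, with a median of 0.55, among them the nucleolar genes Gnl3 (0.72), Npm1 (0.59), Mybbp1a (0.65) and Ncl (0.50). Of 18 genes of the integrated stress response 12 were higher and 2 lower, with a median of 1.08. The summed level of this list did not follow: it was 595, 761 and 1025 CPM in the high and 622, 874 and 1223 CPM in the low strains. Ppp1r15a (GADD34) had 10.1 to 39.02 CPM in the high and 6.39 to 15.1 CPM in the low strains (1.25, SE 0.12, adjusted p 3.90e-10), and the serine synthesis enzyme Psat1 (2.46), the arginine transporter Slc7a1 (1.81) and Atf3 (1.99) were higher. Of 19 NRF2 targets 9 were higher and 2 lower, with Abcc4 at 1.77 and the near-identical Gsta1 and Gsta2 at 2.15 and 1.62.

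Acute-phase genes varied widely between single strains. Of 18, 8 were higher and 0 lower. Lipocalin 2 (Lcn2), which binds bacterial iron carriers, had 41.6, 148 and 1570 CPM in the high and 6.61, 23.8 and 187 CPM in the low strains (3.28, SE 0.50, adjusted p 1.18e-06). Its highest levels were in NZB/BlNJ (1570 CPM), BXD27/TyJ (1129 CPM) and BXH2/TyJ (863 CPM). The interleukin 1 receptor Il1r1 (1.32), Itih3 (0.81) and serum amyloid P (Apcs, 1.17) were higher too.

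**Figure D3:**
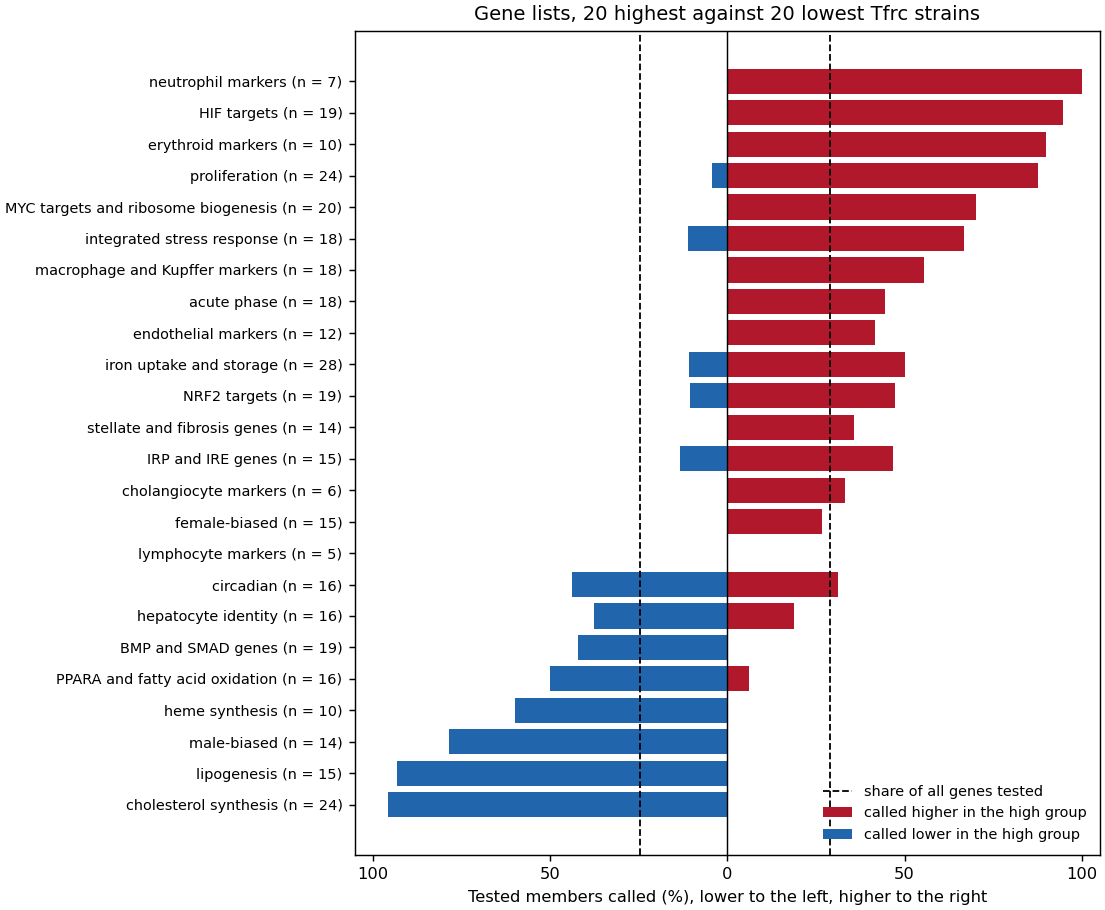
Share of the tested members of each gene list (percent; n tested in brackets) that were called higher (right) or lower (left) in the high Tfrc strains, with dashed lines at the shares over all genes, 28.9% and 24.6%. HIF targets (18 of 19 higher) stand near the top and cholesterol synthesis (23 of 24 lower) at the bottom, and the lists with few tested markers are subject to the filter named above.

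Genes next to Tfrc on chromosome 16 were examined because related strains share long haplotypes. Within 2 Mb of Tfrc 34 genes were tested, and 12 were higher and 10 lower (64.7%, against 53.4% of all genes). The differences had mixed signs and were mostly small. The endothelial gene Heg1 was higher by 0.77 (SE 0.09, adjusted p 2.50e-08), Tctex1d2 by 0.92 and Ppp1r2 by 0.44, while the ketone-body enzyme Bdh1 was lower by 1.16, the guanine exchange factor Kalrn by 0.69 and the pyrimidine enzyme Umps by 0.60.

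The 73 strains between were ranked by the same Tfrc values but are in neither extreme group, and they were used to see which genes follow Tfrc by degrees. The slope of each gene was fitted against log2(TPM + 1) of Tfrc, so its unit is log2 change per unit of that scale. Of 14076 genes tested, 3180 (22.6%) had a slope at an adjusted p under 0.05 (edgeR), 1519 up (10.8%) and 1661 down (11.8%). Of the genes tested in both fits, 2854 were called in both and 2853 of these in the same direction. The latter are 40.6% of the genes called between the extremes and 91.7% of those called among the strains between. Of the 6127 genes not called between the extremes, 67.1% had the same sign in both fits. The Tfrc level chose the members of all 3 sets, but no strain is in both fits.

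**Figure D4:**
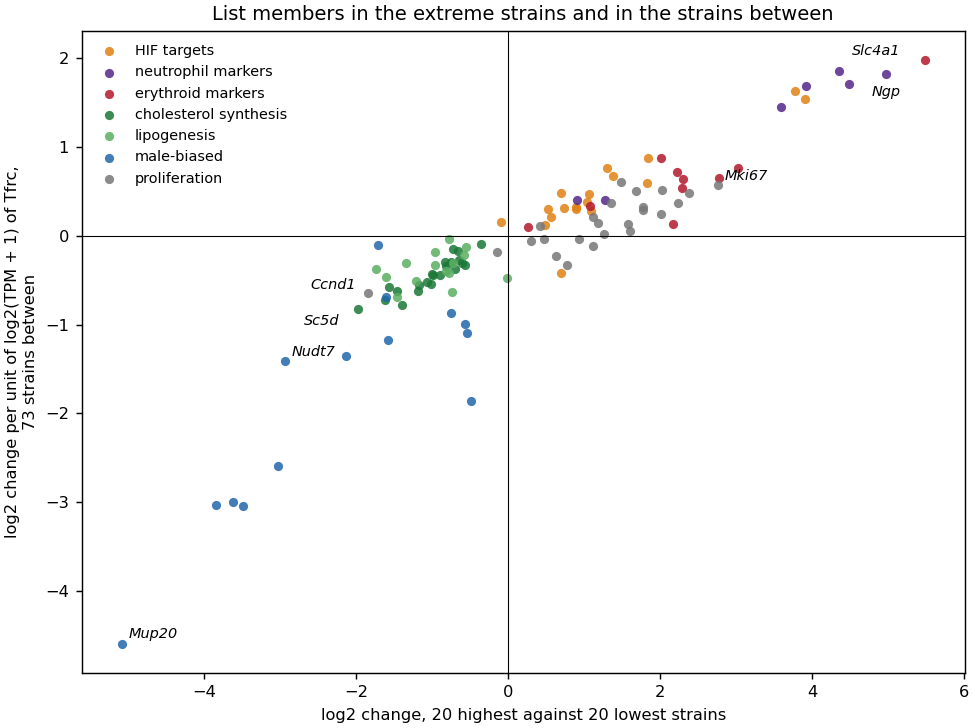
For members of 7 gene lists tested in both fits, the slope on log2(TPM + 1) of Tfrc among the 73 strains between (vertical axis) against the log2 difference of the 20 high and 20 low strains (horizontal axis), in colours by list. Slc4a1 (5.48 and 1.98) lies at the upper right and Mup20 (-5.08 and -4.60) at the lower left.

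Btg2 had the smallest p here too (slope 1.70, adjusted p 4.00e-09), followed by Cyp4v3 (-0.62), the steroid dehydrogenase Akr1c6 (-0.74) and the integrin gene Itgb3 (1.13). Nat8f2 (-0.91), Mlec (-0.56), Lap3 (-0.40), Acy3 (-0.62), Rbm3 (0.61) and Mup11 (-6.95) completed the 10 smallest. Of the HIF targets, Ddit4 had a slope of 1.63 and Bnip3 of 0.76.

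By list, 17 of 20 HIF targets followed Tfrc upward and 0 downward, with a median slope of 0.43 against 0.00 for all genes. Cholesterol genes followed it downward in 14 of 24, lipogenesis in 5 of 15 and male-biased genes in 12 of 14. Upward were 9 of 10 tested neutrophil markers, 11 of 20 MYC targets, 6 of 18 macrophage markers and 6 of 11 tested erythroid markers. Proliferation had only 2 of 27 genes upward and 1 downward. Of 16 PPARα genes 2 were upward and 0 downward, and the slope of Cpt1a was 0.00 (adjusted p 0.996), although it was lower in the high strains.

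Iron genes were examined more closely among the 73 strains, by correlating the log2 CPM of each of 60 genes with log2(TPM + 1) of Tfrc. Of these relations 16 passed a permutation test of Pearson's r after Benjamini-Hochberg adjustment, 11 of them positive, and 15 passed by Spearman's rho. Fth1 had r = 0.52 and rho = 0.48 (adjusted p 0.0002 and 0.0006), Ireb2 r = -0.49 and rho = -0.49 (0.0002 and 0.0006), and Cd163 r = 0.47 and rho = 0.48 (0.0002 and 0.0006). The unadjusted p of r was 1e-05 for these genes, the smallest that 100000 resamples can give. Trf had r = 0.48 and rho = 0.44 (adjusted p 0.00036 and 0.00144), Hmox1 r = 0.46 and rho = 0.41, Ncoa4 r = 0.46 and rho = 0.44, and Tmprss6 r = -0.41 and rho = -0.39. Without the 2 strains farthest from the median Tfrc level, BXD36/TyJ and BXD60/RwwJ, r was 0.47 for Fth1, -0.46 for Ireb2, 0.47 for Cd163 and 0.47 for Trf, and 17 relations passed. The strains fell into separate clusters of Ftl1 and Hamp2, so these genes were given no r. Slc11a2, which was higher in the high strains, had r = 0.25 and rho = 0.25 here and did not pass (adjusted p 0.0921). Of the BMP and SMAD genes that were lower in the high strains, Tmprss6 and Neo1 (r = -0.38, rho = -0.34) passed. The others did not, namely Id2 (r = -0.18), Id3 (-0.12), Id4 (-0.02), Hjv (-0.03), Smad7 (0.06) and Atoh8 (0.04).

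Within the 37 BXD strains 6 relations passed, and within the 36 other strains 1. The r of Fth1 was 0.60 in the BXD and 0.44 in the other strains (adjusted p 0.003 and 0.0633), that of Ireb2 -0.52 and -0.49 (0.0184 and 0.0582), that of Ncoa4 0.67 and 0.28 (0.0006 and 0.298), and that of Trf 0.33 and 0.63 (0.156 and 0.0036). The sign was thus shared in both sets for these genes, while Ncoa4 passed in the BXD strains and Trf in the others. Whether r differs between the sets was not tested.

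The high and low comparison was also made within family sets, since the groups were unevenly mixed. Within the 18 BXD strains 4313 genes were called (16.5% higher, 16.1% lower), and within the 22 other strains 5095 (20.8% and 18.3%). HIF targets were higher in 18 of 19 in both sets, neutrophil markers in 7 of 7 in both, cholesterol genes lower in 19 and 23 of 24, and male-biased genes lower in 11 and 9. Erythroid markers were higher in 5 and 8, and lipogenesis genes lower in 8 and 14. The neutrophil and erythroid counts are again limited to markers that the filter kept and support nothing by themselves. The HIF targets include Ankrd37, to which the same limit applies. The test of the difference between the 2 sets, an interaction term, called 0 of 13162 genes by edgeR, DESeq2 and limma (1007 genes had an unadjusted p under 0.05 by edgeR). On simulated data for this comparison with 13162 genes, that test recovered 52% of 2-fold and 22% of 1.5-fold differences.

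Single strains departed from the pattern. BALB/cJ had 18.5 TPM of Tfrc and thus ranked among the high strains, yet it had the lowest Btg2 (35.7 CPM) and Hmox1 (21.9 CPM) of the high group. Its Mup20, also the lowest of the group (0.636 CPM), followed the direction of the other high strains. Its close relative BALB/cByJ had 3.83 TPM of Tfrc and 10.6 CPM of Btg2. Other close relatives also differed. The lines AXB19/PgnJ, AXB19b/PgnJ and AXB19a/PgnJ had 2.21, 5.04 and 7.52 TPM of Tfrc and 9.31, 11.3 and 48.96 CPM of Btg2. BXD48/RwwJ and BXD48a/RwwJ had 5.09 and 10.2 TPM with 36.8 and 38.3 CPM of Btg2. The 2 mice of 129X1/SvJ, the only strain with 2 animals in the panel, had 4.35 and 2.27 TPM. This pair alone does not measure the spread within strains. In the panel, C57BL/6J had 6.02 TPM of Tfrc and 77.4 CPM of Btg2. The C57BL/6J diet mice on 2% iron with cellulose, described below, had 5.66, 8.34 and 15.5 TPM. They lay on both sides of the lowest level of the high group, 13.9 TPM.

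The C57BL/6J diet mice show how Tfrc varied in 1 strain across diets. Tfrc was 5.79, 6.88 and 8.61 TPM in the 3 mice on 2% iron, 15.5, 8.34 and 5.66 TPM on 2% iron with cellulose as the fiber source, 3.07, 4.34 and 2.79 TPM on 500 ppm iron, 2.14, 3.04 and 4.94 TPM on 50 ppm iron and 8.13, 5.19 and 6.30 TPM on chow. By TPM the mice on 2% iron were thus all above those on 50 ppm iron. By CPM, the scale of the test, the groups overlapped, with 21.4, 19.04 and 28.9 CPM on 2% iron and 9.53, 11.2 and 19.6 CPM on 50 ppm iron. The difference was 0.77 (SE 0.32) and did not pass the test across all genes (adjusted p 0.124, 15.7% of genes called in that contrast). It passed without the third mouse on 50 ppm iron (1.16, adjusted p 0.0429). The differences of 500 ppm against 50 ppm (-0.10, adjusted p 1, 0% called), of chow against 50 ppm (1.12, adjusted p 0.205, 0.391% called), of 2% iron against chow (-0.34, adjusted p 0.472, 22.8% called) and of cellulose against the other 2% iron diet (0.20, adjusted p 0.832, 0.0811% called) did not pass either. For chow against 50 ppm DESeq2 gave an adjusted p of 0.0428.

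Btg2 was 48.7, 36.3 and 68.9 CPM in the mice on 2% iron and 102.4, 67.2 and 54.6 CPM with cellulose, but at most 16.4 CPM in the 9 mice on the 3 other diets. The chow mice had 5.19 to 8.13 TPM of Tfrc, yet their Btg2 was 5.56, 6.27 and 16.4 CPM. Within the diet groups, 0 of 13546 genes followed Tfrc by edgeR (740 had an unadjusted p under 0.05; DESeq2 called 2 and limma 0). On simulated data for this fit, 45% of 2-fold slopes were recovered among 13372 genes. Of the genes called both between the high and low strains and between 2% and 50 ppm iron, 1352 of 1472 had the same direction, and these 1352 are 19.4% of the former and 65.8% of the latter. These shares stand beside the 53.4% of all genes called between the extremes, and 58.3% of the 5920 genes not called between the extremes also had the same sign in both.

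**Figure D5:**
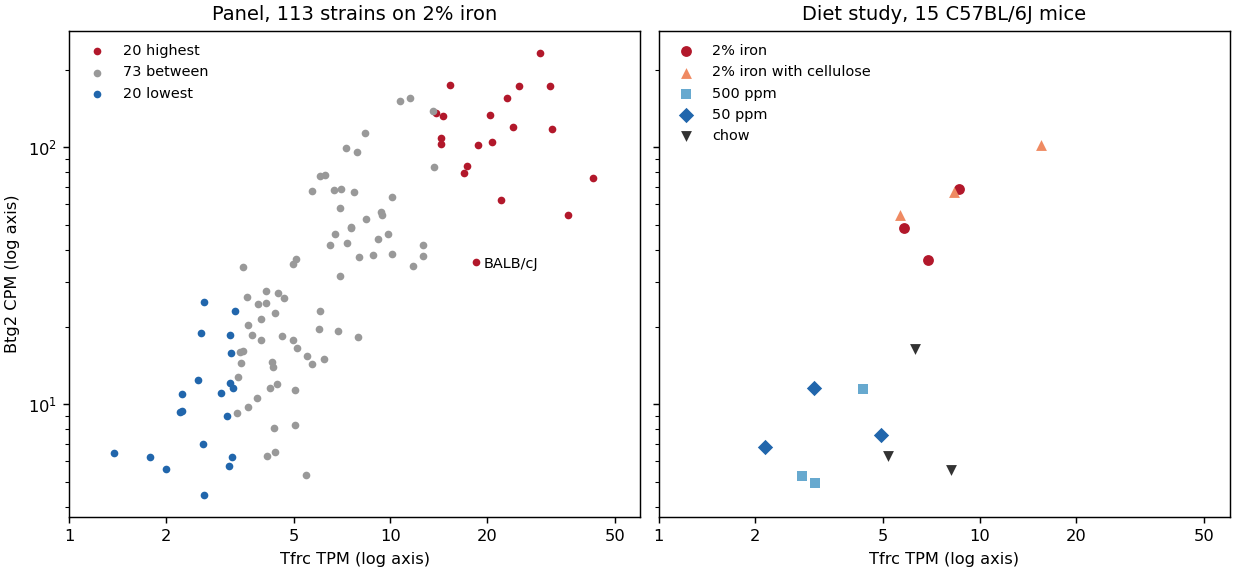
Btg2 (CPM) against Tfrc (TPM), both on log axes, for the ranked strains of the panel and the 15 C57BL/6J mice of the diet study. BALB/cJ has 35.7 CPM of Btg2 at 18.5 TPM of Tfrc, and the 9 mice on chow, 50 ppm and 500 ppm iron lie at or under 16.4 CPM of Btg2.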

How the data were processed

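Liver RNA of 130 male mice was sequenced from libraries of a stranded messenger RNA kit, per the labels. The authors deposited expected counts per gene, which need not be whole and were rounded here, and TPM for the same genes and mice, judged from the values and table names. Kallisto 0.46 and the mm10 build are named in the submitters' processing notes, with no role stated, and the counting strand is not given in the sources used here. All strains were, as far as these sources show, counted against 1 reference, so sequence differences between strains can move counts. Symbols and positions are those of GENCODE M21 on GRCm38 (35612 of 35711 panel and 34845 of 35274 diet identifiers matched), and promoters those of RefSeq on GRCm38.p6.

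Genes were tested with edgeR 4.0.16 (glmQLFit and glmQLFTest, TMM factors, filterByExpr, Benjamini-Hochberg adjustment at 0.05) in R 4.3.3, with Tfrc left out and the strain as the replicate. The fits were high against low (20 and 20 strains), the slope on log2(TPM + 1) of Tfrc in 73 strains, the interaction with family, and the diet groups together. All tests were two-sided. CPM were scaled with TMM factors, and log2 CPM used a prior count of 2. Alternatives were DESeq2 1.42.0, limma 3.58.1 on log2(TPM + 1) and log2(TPM + 0.1), RLE in place of TMM factors, another filter (10 counts everywhere) or none, covariates, other group sizes and sets left out. On simulated counts for the high and low comparison with 13024 genes, edgeR recovered 84.8% of 2-fold and 66% of 1.5-fold changes, with 6.25% false calls. At the library totals given above, a gene under 1 CPM rests on few counts.

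The members and the 26 gene lists were chosen with earlier results of these data known. Named genes are those of the 3 iron lists, the 10 smallest p and 5 largest changes in each direction with a mean of at least 1 CPM, the 10 smallest p among the strains between, called genes within 2 Mb of Tfrc and up to 4 called genes of every other list. Predicted genes were passed over, and any further gene in the text was picked with its values known. Some genes are not reported here. Python 3.11.15, numpy 2.4.6, scipy 1.17.1, pandas 2.3.3 and matplotlib 3.10.9 were used.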

Additional observations from a re-analysis of the deposited data

Results flagged for a closer look

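Key genes were screened for single strains that stand apart within a strain family and Tfrc group, and 7 of 28 such sets held one by Dixon's criterion. Its rate of about 1 in 20 by chance holds for normally distributed values. The levels were screened without logs and all 7 were the highest of their set, so that rate is no measure for this count. Among BXD strains of the high group, BXD100/RwwJ had the highest Igfbp1 (1820.0 CPM), BXD32/TyJ the highest Mup20 (95.9 CPM) and BXD55/RwwJ the highest Dbp (87.4 CPM). Among BXD strains of the low group, BXD75/RwwJ had the highest Igfbp1 (208 CPM) and BXD86/RwwJ the highest Mup20 (2021 CPM). Among AXB/BXA strains of the low group, AXB12/PgnJ had the highest Mup20 (967 CPM) and AXB19/PgnJ the highest Scd1 (32624 CPM).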

How the results depend on the processing

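Of the alternatives of the main results, 93 kept the direction and the side of the threshold or stayed within 1.5 times the count, 10 counts moved further, 2 values gained a call and 7 turned sign. The 7035 genes called between high and low strains became 4313 within BXD strains alone, where fewer strains were compared. They became 4479 with the proliferation level without Ccnd1 as a covariate and 1721 with Dbp, both added after seeing the data. The cause of these drops was not tested. The 3180 genes following Tfrc among the strains between became 1836 and 1829 with limma on log2(TPM + 1) and log2(TPM + 0.1). They became 2975 with Dbp as a covariate, also added after seeing the data. In the 37 BXD strains alone they became 1811, and in the 36 other strains alone 365. These sets are near equal in size, and why their counts differ was not tested. Within the diet groups DESeq2 called 2 genes in place of 0, and of the 16 correlations 6 passed in BXD strains and 1 in the others. Leaving out 1 diet mouse at a time, Tfrc differed by 0.58 to 1.16 for 2% iron against 50 ppm (1.16 without the third mouse on 50 ppm), by -0.28 to 0.29 for 500 ppm against 50 ppm, by 0.93 to 1.51 for chow against 50 ppm, by -0.54 to -0.19 for 2% iron against chow and by -0.21 to 0.48 for cellulose against 2% iron. Signs turned for 500 ppm against 50 ppm without the third mouse on 500 ppm (0.02) or on 50 ppm (0.29), for cellulose without its first mouse (-0.21), and with limma at pseudocounts of 1 and 0.1 for 500 ppm against 50 ppm (0.0454 and 0.0694) and 2% iron against chow (0.106 and 0.121), none of which were called. DESeq2 called chow against 50 ppm at 1.13. Of the named genes 88 of 178 lost their call with the Dbp covariate, and Slc48a1 (-0.0129) and Tnk2 (-0.0636) turned sign, while 30 of 176 lost it in BXD strains alone and 32 of 179 with the proliferation covariate without Ccnd1. No paired analysis was possible because the labels give no replicate numbers shared between groups of strains or diets. With 1 mouse per strain, and Tfrc at 60 to 160 counts in the low strains, the order of neighbouring strains is not firm. The group of a strain also rests on 1 animal.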

Other observations

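Further genes outside the lists also differed between the high and low Tfrc strains, and all of them were chosen after their values were seen, against a background of 53.4% of genes called. The metallothioneins, which bind zinc and copper and answer to metals and glucocorticoids, were higher: Mt1 had 263, 720.2 and 1823 CPM (lowest, median, highest) in the high and 45.4, 239 and 635 CPM in the low strains (1.72, edgeR adjusted p 1.35e-06), and Mt2 was higher by 2.03 (adjusted p 3.01e-06). Fkbp5, a classical glucocorticoid target, had medians of 232 and 74.6 CPM (1.68, adjusted p 1.90e-07). Both metallothioneins and Fkbp5 also followed Tfrc among the 73 strains between, with slopes of 0.99, 1.09 and 1.08. The TWEAK receptor Tnfrsf12a was higher by 2.18, and the lipid droplet gene Hilpda (2.57), a HIF target outside the list, and the magnesium transporter Nipal1 (2.07) had ranges without overlap.

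Several enzymes that mark mature hepatocytes were lower, picked like the genes above with their values known. Of the 16 hepatocyte genes of the list, 18.8% were higher and 37.5% lower. The median of their summed level was 116569 CPM in the high and 112409 CPM in the low strains. The bile acid enzyme Cyp7a1 had 3.61, 29.6 and 133 CPM in the high and 30.3, 143 and 364.2 CPM in the low strains (-1.96, edgeR adjusted p 8.75e-06). Cyp2f2, a marker of hepatocytes near the portal vein, was lower by 1.63, and Cyp1a2, a marker of those near the central vein, by 1.39. Cyp2e1, another such marker, had medians of 2789 and 5458 CPM (adjusted p 0.000158). The growth hormone receptor Ghr had medians of 209 and 391.9 CPM (-0.90, adjusted p 6.18e-06), while Socs2, a growth hormone target, was higher by 1.47 (adjusted p 5.77e-08).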
